A study of Mus musculus with 28 samples.

Results

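The metabotropic glutamate receptor and Homer genes of the mouse amygdala were followed across 3 drinking conditions. The 9 genes *Grm2*, *Grm3*, *Grm4*, *Grm5*, *Grm7*, *Grm8*, *Homer1*, *Homer2* and *Homer3* were chosen by symbol, and all 9 were found among the 49477 genes that both count tables of the series list and among the 16266 genes that averaged 10 counts or more. RNA-seq had been run on amygdala micropunches of 28 adult female C57BL/6J mice (written C57BL6/J in the sample labels). They were 7 weeks old on arrival and were kept for 28 days with a choice of tubes. The 10 Water mice drank water only, the 9 Acute mice had a single access to 20% ethanol on day 28, and the 9 Chronic mice had 20% ethanol every other day. All mice were collected on day 29, in 2 cohorts called batches here (4 Water, 4 Acute and 3 Chronic mice in batch 1, and 6, 5 and 6 in batch 2). Each mouse is 1 library. The total was between 20004380 and 22569562 estimated reads per mouse. Batch was a term in the tests between groups, and batch means were removed from the counts of the 9 genes shown by group. Shares of a summed level and summed marker counts were not adjusted for batch.

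Metabotropic glutamate receptors are G protein-coupled receptors for glutamate that set the strength of synapses more slowly than ion channel receptors do. Group I receptors such as mGlu5 (*Grm5*) couple to phospholipase C and calcium release and sit mainly after the synapse, where Homer proteins tie them to Shank scaffolds and to the inositol trisphosphate receptor. Group II (*Grm2*, *Grm3*) and group III (*Grm4*, *Grm7*, *Grm8*) receptors inhibit adenylyl cyclase and mostly reduce transmitter release, and mGlu3 is also made by astrocytes. The mGlu5 and Homer2 proteins are known from studies of alcohol drinking, in the amygdala among other regions.

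Levels of different genes were compared as normalized counts per kilobase of exon in the Water mice, which corrects for gene length. *Grm5* had the highest level of the 9, between 538 and 669 normalized counts per kilobase with a mean of 591 ± 38.4 (SD, n = 10). *Grm3* followed at 346 ± 49.0 and *Homer1* at 277 ± 27.6. *Grm7*, a presynaptic receptor of low glutamate affinity, stood at 256 ± 14.7, and *Grm2*, a presynaptic autoreceptor, at 236 ± 44.3. The other 4 were lower, with *Grm4* at 109 ± 25.2, *Grm8* at 80.7 ± 9.52, *Homer2* at 70.2 ± 5.61 and *Homer3* at 36.5 ± 4.93.

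The ranges over the 10 Water mice were separate at 3 steps of this order. *Grm5* was above *Grm3*, *Grm2* above *Grm4* and *Homer2* above *Homer3* in 10 of 10 mice. The other neighbours overlapped, and *Homer1* was above *Grm7* in only 7 of 10 mice and *Grm7* above *Grm2* in 6 of 10. Within the receptors, *Grm5* made up 36.6% ± 1.97 of the summed level per kilobase of the 6 genes in Water mice, 34.4% ± 1.98 in Acute mice and 34.7% ± 2.08 in Chronic mice. Within the Homer genes, *Homer1* made up 72.1% ± 2.24, 71.3% ± 1.54 and 69.9% ± 3.77 in these groups.

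**Figure D1:**
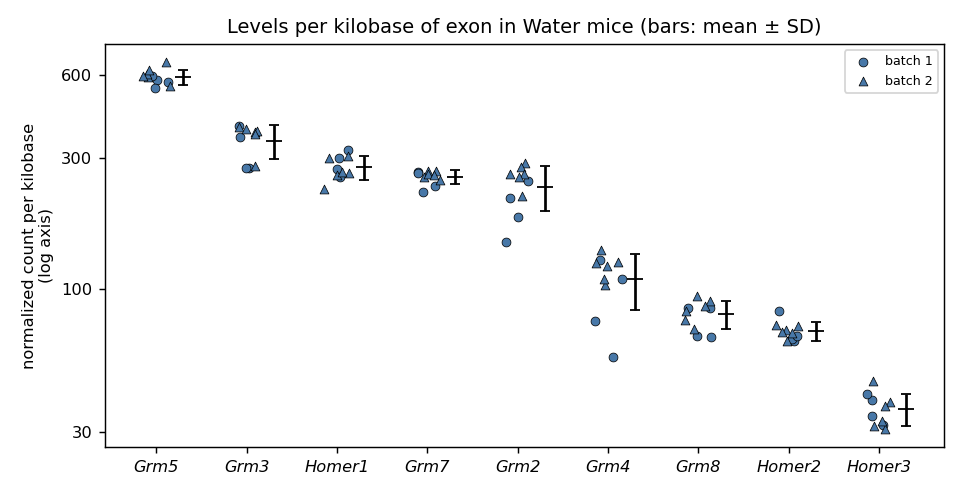
Normalized counts per kilobase of exon (vertical log axis) of each gene in the 10 Water mice, ordered by mean, with circles for batch 1, triangles for batch 2 and bars for mean ± SD. *Grm5* lies apart at the top and *Homer3* at the bottom, and *Homer1*, *Grm7* and *Grm2* overlap.

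The order rests on the length used and in part on batch. With the mean length of a gene's annotated transcripts in place of its joined exons, 3 of the 9 genes kept their place, *Grm5* and *Homer3* stayed first and last, and *Homer1*, whose 12 annotated transcripts include the short activity-induced form Homer1a, moved to the second place at 1520 ± 151 against 346 ± 49.0 for *Grm3*. The counts sum all transcripts of a gene, so the short and long Homer1 forms, which act against each other at the synapse, were not told apart. Per kilobase of exon over all mice of a batch, *Grm2* had rank 5 in batch 1 (mean 210) and rank 3 in batch 2 (mean 277). *Homer1* had rank 3 in batch 1 and rank 5 in batch 2.

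Mice differed most in *Grm4*. After the means of each group and batch were removed, its SD was 0.28 on the log2 scale, above that of 95.6% of the 11715 genes that averaged 100 counts or more. *Grm2* followed at 0.21 and *Homer1* at 0.18, while *Grm5* at 0.078 and *Grm7* at 0.072 lay below the median gene, at 0.11. The power to see a difference between groups was thus unequal between the genes.

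No gene of the 9 passed an adjusted p of 0.05 in any comparison by edgeR's quasi-likelihood test with Benjamini-Hochberg adjustment over all 16266 genes. In Acute against Water mice, 0% of all genes passed it. In Chronic against Water mice 0.0184% of all genes did, and in Chronic against Acute mice 0%. By DESeq2, by limma-voom with sample quality weights, and by DESeq2 after ComBat-seq batch correction, 0 of the 9 genes passed it as well, where *Homer3* was given no adjusted p by DESeq2 against Water in either group, nor after ComBat-seq in Chronic mice. At an unadjusted p under 0.05, 2 of 9 genes stood out in Acute mice, where 9.52% of all genes did, and 1 of 9 in Chronic mice, where 10.5% did. Between Chronic and Acute mice 0 of 9 did, where 4.44% of all genes did. Both comparisons with Water share the 10 Water mice. The samples were separate mice, so p-values refer to the spread between animals.

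*Grm5* was the gene with the lowest unadjusted p in both comparisons with Water. Its batch-adjusted normalized count ran from 5519 through a median of 6037 to 6758 in Water mice. The Acute mice ran from 5275 through 5742 to 5965, and the Chronic mice from 5140 through 5579 to 6199. All 9 Acute mice lay below the Water mean, and 8 of 9 Chronic mice did, but the groups overlapped. The fitted log2 fold change was -0.09 ± 0.035 (SE) in Acute mice, a change in level of -5.97% (95% interval -10.5% to -1.15%; unadjusted p = 0.0175, adjusted p = 0.467). In Chronic mice it was -0.10 ± 0.035, a change in level of -6.96% (-11.5% to -2.20%; unadjusted p = 0.00616, adjusted p = 0.272). An exact permutation of the labels within batches gave p = 0.0170 and p = 0.0175.

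The difference in *Grm5* had the same sign in both batches. The Acute difference was -0.07 in batch 1 and -0.10 in batch 2, and the Chronic difference was -0.06 and -0.13. When the trend of each mouse on GC content and gene length was removed, the Acute difference was -0.06 (unadjusted p = 0.062) and the Chronic difference -0.07 (unadjusted p = 0.027). With a score of central amygdala marker genes, described with *Grm8*, as a covariate, the Acute difference was -0.07 (unadjusted p = 0.0793) and the Chronic difference -0.10 (unadjusted p = 0.0107). Chronic and Acute mice differed by -0.02 (95% interval -0.09 to 0.06 on the log2 scale; adjusted p = 0.999).

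Of the group II receptors, *Grm2* ran from 865 through 1148 to 1443 normalized counts in Water mice, from 994 through 1275 to 1602 in Acute mice and from 1097 through 1280 to 1327 in Chronic mice. The means were higher in both drinking groups, in 6 of 9 Acute and 7 of 9 Chronic mice, with log2 fold changes of 0.15 ± 0.086 (adjusted p = 0.595) and 0.11 ± 0.086 (adjusted p = 0.681). The differences were within the spread of the Water mice.

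*Grm3* took separate values within the Water group. In 3 Water mice it lay at 841 (mouse 5 of batch 2), 855 and 859 (mice 43 and 42 of batch 1), and in the other 7 between 1100 and 1217, with no mouse between. The 9 Acute mice (927 to 1178) and the 9 Chronic mice (877 to 1101) filled the gap. The log2 fold changes were -0.05 ± 0.067 and -0.11 ± 0.067 (adjusted p = 0.839 and 0.587). In batch 2 alone the Chronic difference was -0.17 (unadjusted p = 0.0303), against -0.004 in batch 1, where the interaction with batch had an adjusted p of 0.877.

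Of the group III receptors, *Grm8* had an unadjusted p under 0.05 in Acute mice. Its normalized count ran from 689 through 815 to 904 in Water mice, from 767 through 908 to 973 in Acute mice and from 688 through 851 to 931 in Chronic mice. The log2 fold change was 0.15 ± 0.063 in Acute mice, a level 11.2% higher (1.77% to 21.6%; unadjusted p = 0.0207, adjusted p = 0.477, exact permutation p = 0.0346), and 8 of 9 Acute mice lay above the Water mean. Without Water mouse 40 of batch 1 it was 0.13 (unadjusted p = 0.0519). It was 0.06 ± 0.063 in Chronic mice (adjusted p = 0.789). Between Chronic and Acute mice *Grm8* differed by -0.10 ± 0.065 (unadjusted p = 0.146), so the groups of drinking mice were not shown to differ.

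The Acute difference in *Grm8* went together with genes that mark the central amygdala, the output nucleus of the amygdala. All 6 genes of that list (*Prkcd*, *Crh*, *Tac2*, *Nts*, *Dlk1* and *Sst*) had positive log2 fold changes in Acute mice, beside 50.6% of all genes, with a median of 0.25. In Chronic mice 6 of 6 were positive too, beside 51.0% of all genes, with a median of 0.11. In Acute mice 1 had an unadjusted p under 0.05, beside 9.52% of all genes, and 0 passed the adjustment. Their summed normalized count was 7021 to 8987 in Water mice, 7867 to 9771 in Acute mice and 7005 to 9334 in Chronic mice, and no gene of the list was at 0 in any mouse. With the score of this list, the mean log2 level of its genes, as a covariate, the log2 fold change of *Grm8* was 0.05 (unadjusted p = 0.335). With the score of a striatal list instead it was 0.15 (p = 0.0253). The central amygdala score holds *Nts*, which the authors list as higher in Acute mice, and *Prkcd*, which is also on a thalamus list of markers used below. The score comes from the same libraries and after the drinking, so drinking and tissue sampling cannot be told apart by it. In bulk tissue, fewer cells of a type and less RNA per cell cannot be told apart either.

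*Grm4* ran from 397 through 663 to 893 in Water mice, from 599 through 703 to 904 in Acute mice and from 480 through 698 to 814 in Chronic mice. The log2 fold changes were 0.17 ± 0.112 and 0.09 ± 0.112 (adjusted p = 0.641 and 0.835), and the 95% intervals reached from -0.06 to 0.40 and from -0.14 to 0.32. Without Water mouse 43 of batch 1, which had the lowest count, they were 0.105 and 0.027, and without Water mouse 40 of batch 1 they were 0.24 (unadjusted p = 0.0360) and 0.15. These intervals are the widest of the 9 genes in both comparisons. *Grm7*, in contrast, had the narrowest, with 0.04 (-0.03 to 0.11) in Acute mice and -0.001 (-0.07 to 0.07) in Chronic mice, so that differences above 7.90% or below -4.73% lay outside both of them.

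**Figure D2:**
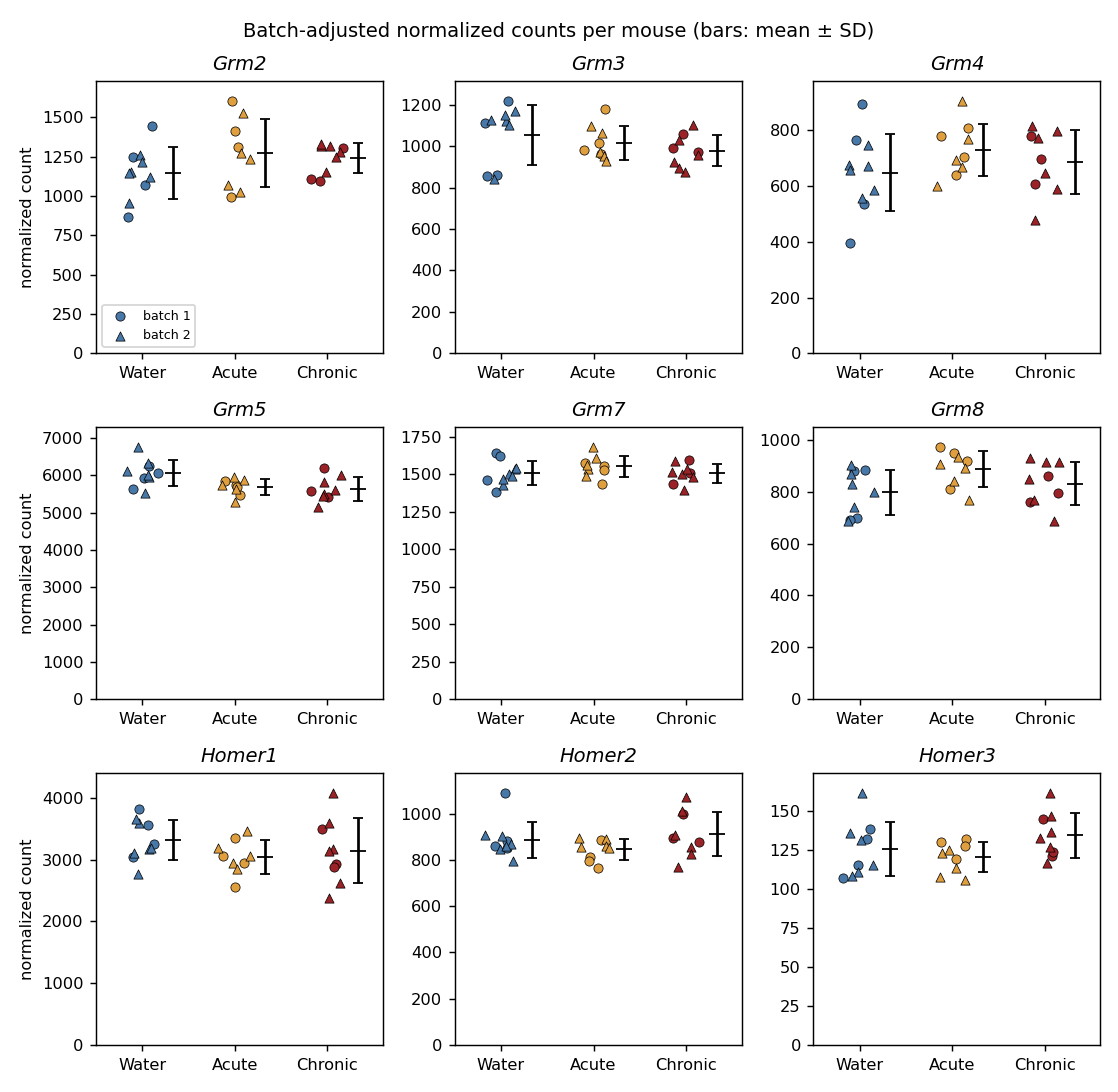
Batch-adjusted normalized counts (vertical axes from 0) of the 9 genes in each mouse, with Water in blue, Acute in orange and Chronic in red, circles for batch 1, triangles for batch 2 and bars for mean ± SD. The groups overlap for every gene, and 3 Water mice lie apart from the other 7 in *Grm3*.

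*Homer1*, the main Homer gene here, ran from 2776 through 3220 to 3821 in Water mice and from 2550 through 3056 to 3464 in Acute mice. The Chronic mice spread from 2383 through 3143 to 4084, wider than both other groups at both ends. The log2 fold changes against Water were -0.12 ± 0.077 in Acute mice (7 of 9 lower; unadjusted p = 0.120, adjusted p = 0.623) and -0.08 ± 0.077 in Chronic mice (6 of 9 lower; adjusted p = 0.762). The Chronic value ran from -0.13 without Chronic mouse 4 to -0.035 without Chronic mouse 1, both of batch 2.

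*Homer2*, a scaffold that binds the same receptors, ran from 795 through 864 to 1089 in Water mice, from 766 through 857 to 893 in Acute mice and from 770 through 894 to 1069 in Chronic mice. It differed by -0.07 ± 0.055 in Acute mice and 0.04 ± 0.055 in Chronic mice (adjusted p = 0.696 and 0.840). The Chronic value ran from 0.0096 without Chronic mouse 5 of batch 2 to 0.08 without Water mouse 43 of batch 1. The difference between Chronic and Acute mice was 0.11 ± 0.056 (unadjusted p = 0.0578, adjusted p = 0.998). In batch 1 it was 0.18 and in batch 2 0.06.

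*Homer3*, which had the lowest counts and the lowest level, ran from 107 through 123 to 161 in Water mice, from 106 through 123 to 132 in Acute mice and from 117 through 132 to 161 in Chronic mice. Chronic mice were higher than Acute mice by 0.16 ± 0.079 on the log2 scale (8 of 9 mice; unadjusted p = 0.0530, adjusted p = 0.998, exact permutation p = 0.0242). The difference was 0.25 in batch 2 and 0.03 in batch 1, and the test between the batches gave an unadjusted p of 0.180 by edgeR. *Homer3* shares exon bases with *Ddx49* on the other strand, and whether the counting used strand is not given in the sources used here. The same holds for *Grm2*, *Grm7* and *Homer2*, which share exon bases with antisense transcripts.

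Over all 9 genes, the median log2 fold change was -0.05 in Acute and 0.04 in Chronic mice against Water and -0.04 in Chronic against Acute mice, beside 0.001, 0.002 and -0.0009 over all genes tested. Other differences from Water that moved by over 1.5 times without 1 mouse were those of *Grm3* in Acute mice (-0.09 to -0.02, without Water mouse 43 and 41), *Grm7* in Acute mice (0.02 without Water mouse 40), *Grm8* in Chronic mice (0.03 without Water mouse 3 to 0.09 without Chronic mouse 2), and *Homer3* in Acute mice (-0.02 without Water mouse 2) and Chronic mice (0.06 without Chronic mouse 1 to 0.15 without Water mouse 2). In 5 of 9 genes the Acute difference had the same sign in both batches, in 8 of 9 the Chronic difference and in 7 of 9 the difference between the drinking groups. The number of genes whose groups did not overlap was 0 of 9 in each comparison, beside 0.0184%, 0.00615% and 0% of all genes tested. A test of the difference between the batches passed the adjusted threshold for 0 of the 9 genes in the 3 comparisons (edgeR's quasi-likelihood test, lowest adjusted p = 0.877). Its lowest unadjusted p was 0.0938, for *Homer2* in Acute mice, which differed from Water by -0.18 in batch 1 and 0.0086 in batch 2. With 11 mice in batch 1, this does not show that the batches were alike.

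**Figure D3:**
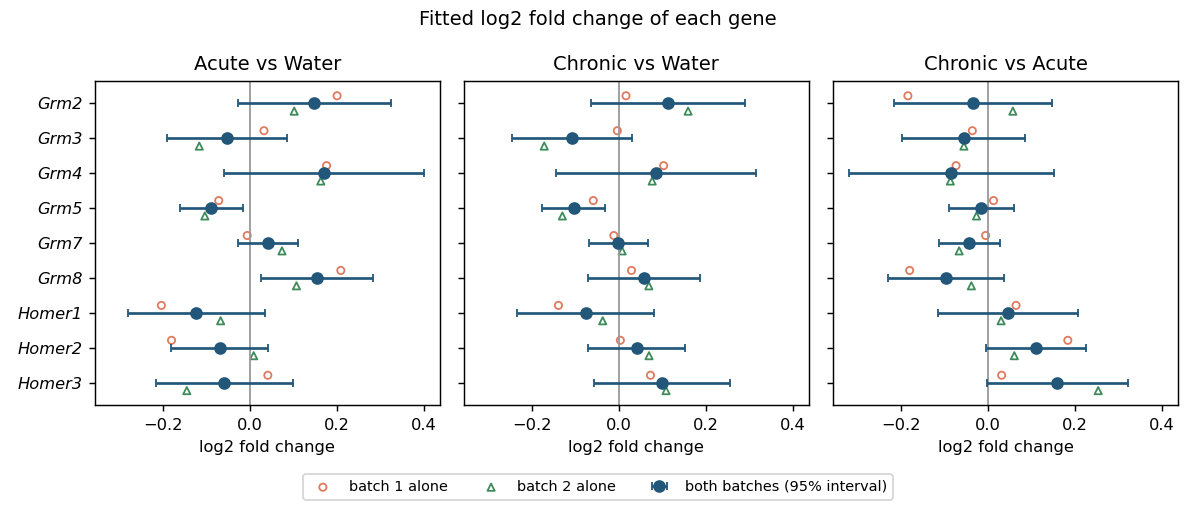
Log2 fold change (horizontal axes) of each gene in the 3 comparisons, as filled points with 95% intervals for both batches together and open symbols for each batch alone. In the comparisons with Water the intervals of *Grm5* (both) and *Grm8* (Acute) leave out 0, and the batches lie on either side of 0 for *Grm3*, *Grm7*, *Homer2* and *Homer3* in Acute mice.

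Mouse-to-mouse variation was then set against lists of marker genes for the cell types and neighbouring regions that a punch can hold, with group and batch means removed. Over 144 relations (the 9 genes with 12 lists, and with each other), p-values came from 100000 permutations each. By Pearson's r 16 had an adjusted p under 0.05, and 5 of these also by Spearman's rho. The permutations made no allowance for the group and batch means that had been removed, so these p-values are too small. Relations with an adjusted p close to 0.05 may not pass with such an allowance, which was not tested. *Grm3* and *Grm4* had the highest r with the 8 striatal genes, among them *Drd1*, *Drd2*, *Adora2a*, *Rgs9*, *Ppp1r1b*, *Pde10a* and *Rasd2*, and they varied with each other.

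For *Grm3* and the striatal list, r was 0.80 and rho 0.76 (permutation p = 1e-05 and 2e-05, adjusted p = 0.00072 and 0.0014). The correlation was 0.81 within batch 1 and 0.80 within batch 2, and 0.79 without the 2 mice farthest from the median of the list. For *Grm4*, r was 0.80 and rho 0.82 (permutation p = 1e-05 for both, the smallest that these permutations can give; adjusted p = 0.00072 and 0.0014), with 0.91 and 0.67 within the batches. The 3 Water mice with low *Grm3* were those with the lowest striatal scores of the Water group, between -0.92 and -0.96 on the log2 scale from the mean of their group and batch. Between *Grm3* and *Grm4*, r was 0.62 and rho 0.60 (adjusted p = 0.0141 and 0.0297).

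The striatal markers themselves varied widely. Their summed normalized count was 9645 to 36936 in Water mice, 12781 to 29365 in Acute mice and 11780 to 24512 in Chronic mice, with no marker at 0 in any mouse. For the labelled tissue, every gene of the central amygdala list and of a list of pallial excitatory neurons was detected in every mouse. In Chronic against Water mice 8 of 8 striatal markers had negative log2 fold changes, with a median of -0.35, where 51.0% of all genes were positive. Of these markers 2 had an unadjusted p under 0.05, beside 10.5% of all genes, and 0 passed after adjustment. In Acute mice 3 of 8 were positive, with a median of -0.007. With the striatal score as a covariate, the Chronic difference in *Grm3* was -0.04 (unadjusted p = 0.382) and that in *Grm4* was 0.20 (unadjusted p = 0.00972, adjusted p = 0.296), and *Grm5* stayed at -0.10 in Acute mice (p = 0.00782) and -0.09 in Chronic mice (p = 0.0140).

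*Grm8* correlated with the central amygdala list across mice within groups too, with r = 0.69 and rho = 0.67 (permutation p = 1e-04 and 0.00017, adjusted p = 0.0040 and 0.0061). The value was 0.62 in batch 1, 0.73 in batch 2 and 0.58 without the 2 farthest mice. *Homer2* ran the other way, with r = -0.52 and rho = -0.52 (adjusted p = 0.0416 and 0.0588), and -0.52 within each batch.

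*Grm2* was lower in mice with higher oligodendrocyte markers, with r = -0.62 and rho = -0.47 (adjusted p = 0.0144 and 0.0894), and r was -0.37 without the 2 farthest mice. Its relation to the neuron list rested on few mice, since r was 0.55 over all 28 mice (rho = 0.37; adjusted p = 0.0358 and 0.217), 0.24 without the 2 farthest, and 0.80 and -0.06 within the batches. *Grm3* and *Grm4* also had negative r with the choroid plexus and ependyma list, of -0.52 and -0.58 (adjusted p = 0.0416 and 0.0194), and -0.40 and -0.50 without the 2 farthest mice. For *Grm4* the rho was -0.68 (adjusted p = 0.0043). Both genes had positive r with the endothelial list as well, of 0.60 for *Grm3* and 0.65 for *Grm4* (adjusted p = 0.0144 and 0.0040), and 0.51 and 0.44 without the 2 farthest mice. *Grm3* also went with the microglia list (r = 0.54, adjusted p = 0.0383) and *Grm4* with the oligodendrocyte precursor list (r = 0.53, adjusted p = 0.0416), with r of 0.38 and 0.31 without the 2 farthest mice. By rho these 4 had adjusted p of 0.0588, 0.0588, 0.0588 and 0.219. Whether the relation to the striatal list was stronger than these was not tested. One choroid plexus and ependyma gene was at 0 in an Acute mouse, and the summed count of that list ran from 348 to 89777 over the mice.

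**Figure D4:**
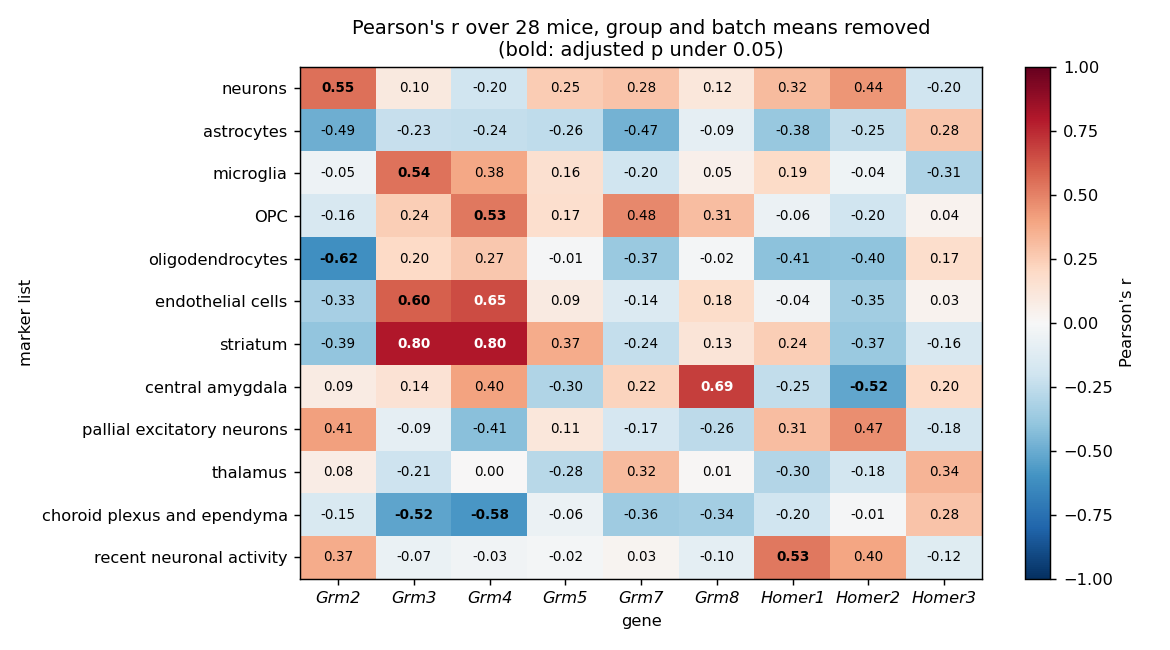
Pearson's r (colour and number) of each gene (horizontal axis) with each marker list (vertical axis) over the 28 mice, group and batch means removed, with bold for an adjusted p under 0.05. The adjusted p makes no allowance for the means removed and is too small. The highest values are 0.80, for *Grm3* and *Grm4* with the striatum list, and *Grm5*, *Grm7* and *Homer3* have no bold value.

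*Homer1* went with the list of immediate early genes such as *Fos*, *Egr1* and *Arc*, which neurons switch on with activity. The r was 0.53 and rho 0.50 (permutation p = 0.00391 and 0.00772, adjusted p = 0.0416 and 0.0695), with 0.48 and 0.57 within the batches and 0.40 without the 2 farthest mice. *Grm5* and *Homer1*, whose proteins bind each other, also varied together, with r = 0.52 and rho = 0.54 (adjusted p = 0.0444 and 0.0588). Homer1a is itself known as an immediate early gene product. The 250 bases before a start of *Homer1*, on the plus strand of GRCm38.p6 at chr13:93303507-93303756 and taken from RefSeq, are shown because cAMP response elements with the core TGACGT are a known route by which activity drives such genes. The matches to TGACGT are in capitals.
Homer1 upstream: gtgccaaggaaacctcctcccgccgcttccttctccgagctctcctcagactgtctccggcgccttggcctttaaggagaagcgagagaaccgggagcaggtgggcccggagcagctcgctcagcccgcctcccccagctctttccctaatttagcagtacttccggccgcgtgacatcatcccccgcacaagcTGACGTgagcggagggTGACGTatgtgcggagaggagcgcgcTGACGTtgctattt

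These bases hold 3 matches to TGACGT as written and 0 on the other strand, and their first bases lie at -56, -40 and -14 from the start. Of 32851 windows of the same length in the RefSeq table, 6.47% hold the motif on either strand. For 7 of the 9 genes the table has windows, 12 in all, and only this 1 of the 2 windows of *Homer1* holds it. Of the 12 immediate early genes 9 have a window, and 6 of these hold it, beside 7.29% of all genes with a window. A match is a description of letters, and binding was not measured.

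**Figure D5:**
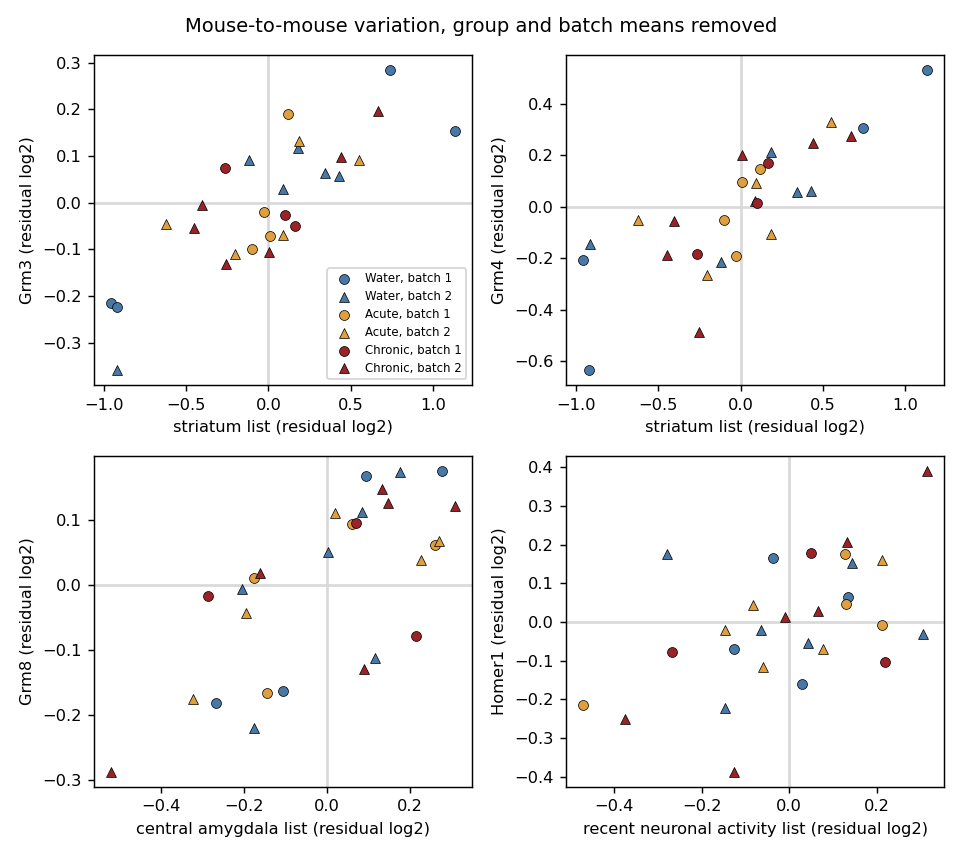
Residual log2 levels of 28 mice after group and batch means were removed, with a marker list score on the horizontal axis and a gene on the vertical axis, and group by colour and batch by symbol. *Grm3* and *Grm4* follow the striatum list, *Grm8* follows the central amygdala list, and *Homer1* follows the activity list more loosely (r = 0.80, 0.80, 0.69 and 0.53).

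The genes whose levels followed each of the 9 most closely over the 28 mice were taken from 11446 named genes, as a description. For *Grm3* they were *Phactr1* (r = 0.90) and *Kcna4* (0.88), for *Grm4* *Lingo3* (0.90) and *Clip4* (0.89), and for *Grm8* *Cyp26b1* (0.79) and *Tmeff1* (0.78). For *Grm5* they were *Lrrc7* (0.84) and *Ptpn4* (0.84), for *Homer1* *Dapk1* (0.85) and *Paqr9* (0.83), and for *Homer2* *Rims1* (0.80) and *Mroh1* (0.76). *Grm2* was followed by *Smap1* and *Nifk* (both 0.86), *Grm7* by *Carmil3* and *Astn2* (both 0.71) and *Homer3* by *Ormdl3* (0.71) and *Slc22a17* (0.69). Densin (*Lrrc7*) is a postsynaptic density protein, and *Cyp26b1* encodes an enzyme that breaks down retinoic acid.

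The signalling partners of these receptors were followed in 6 lists of 68 genes, of which 66 were tested. The other 2, *Plcb3* and *Grk5*, were held here for batch 2 alone and were not analysed. By edgeR's quasi-likelihood test 0 of 66 passed the adjusted threshold in any comparison. At an unadjusted p under 0.05 there were 3 of 66 in Acute mice (4.55%, beside 9.52% of all genes), 7 of 66 in Chronic mice (10.6%, beside 10.5%) and 7 of 66 between Chronic and Acute mice (10.6%, beside 4.44%).

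On the phospholipase C side of group I receptors, *Trpc1*, a cation channel subunit that these receptors open, stood at 857 ± 45.3 in Chronic mice against 945 ± 67.3 in Water mice, with a log2 fold change of -0.14 ± 0.044 (8 of 9 lower; unadjusted p = 0.00310, adjusted p = 0.241). *Itpr1*, the calcium release channel that Homer ties to mGlu5, differed by -0.24 ± 0.104 in Chronic mice (adjusted p = 0.410), with -0.07 in batch 1 and -0.34 in batch 2. *Trpc5* differed by -0.21 ± 0.089 in Acute mice (adjusted p = 0.489). Against Acute mice, *Plcb1* differed by -0.10 ± 0.047 in Chronic mice, with 9 of 9 mice lower (unadjusted p = 0.0420, adjusted p = 0.998). Of the 11 genes tested on this side, 3 had positive log2 fold changes in Chronic against Water mice (median -0.09), beside 51.0% of all genes, and 6 in Acute against Water mice (median 2.1e-05), beside 50.6%.

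On the adenylyl cyclase side of group II and III receptors, *Adcy2* differed by 0.10 ± 0.043 in Acute mice (9 of 9 higher; adjusted p = 0.501) and by 0.09 ± 0.043 in Chronic mice (8 of 9; adjusted p = 0.476). *Gnai2*, an inhibitory G protein subunit, stood at 4579 ± 216 in Chronic and 4293 ± 206 in Water mice, with 0.09 ± 0.033 (9 of 9 higher; unadjusted p = 0.00798, adjusted p = 0.290), and 0.04 and 0.12 in the batches. Among the scaffolds and binding proteins, *Elfn1*, which recruits group III receptors across the synapse, differed by 0.17 ± 0.077 in Chronic against Water mice (adjusted p = 0.427). *Elfn2*, *Shank1* and *Shank2* differed by 0.14, 0.12 and 0.12 in Chronic against Acute mice (unadjusted p = 0.0205, 0.0412 and 0.0485, adjusted p = 0.998 for all).

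In the remaining lists, *Rgs4*, which ends signalling by Gq and Gi proteins, differed by -0.21 ± 0.075 between Chronic and Acute mice, with 5468 ± 638 against 6323 ± 355 normalized counts (8 of 9 lower; unadjusted p = 0.00835, adjusted p = 0.998), and -0.32 and -0.14 in the batches. *Glul*, glutamine synthetase of astrocytes, differed by -0.07 ± 0.030 there, in 9 of 9 mice (adjusted p = 0.998). *Slc1a2*, the main astrocyte glutamate transporter, differed by -0.09 ± 0.042 in Chronic against Water mice (-0.04 and -0.12 in the batches), and *Fmr1*, whose protein restrains translation downstream of mGlu5, by -0.08 ± 0.035 (adjusted p = 0.449 and 0.433).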

How the data were processed

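The authors quantified paired-end BGISEQ-500 reads with Salmon 0.14.1 on a GRCm38/mm10 transcriptome, summed them to GENCODE M21 genes with tximport and deposited estimated counts per batch as whole numbers, before batch adjustment. Whether tximport scaled the counts is not given in the sources used here. Groups and batches came from the labels. The tables were joined by gene identifier, and 0 sample columns were left out.

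Genes averaging 10 counts or more were tested in R 4.3.3 with edgeR 4.0.16 (quasi-likelihood, TMM, batch and group over all 28 mice, Benjamini-Hochberg over 16266 genes, threshold 0.05). DESeq2 1.42.0, limma 3.58.1 and ComBat-seq of sva 3.50.0 were alternatives. The exact permutation test used all 32340 regroupings within batches (16170 for Chronic against Acute), 2-sided, on log2 CPM with a prior count of 2. On counts simulated for Acute against Water over 16266 genes, 42% of genes changed 1.2-fold and 88% of those changed 1.5-fold were recovered. In this simulation 50 genes were changed at each fold, up to 2-fold, which eases the adjusted threshold, and 13 unchanged genes were called. Of 55 pairs of mice of a group and batch, 0 were identical.

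The 9 genes, gene lists and tests were chosen with earlier results of these data known. Pathway genes were named by unadjusted p under 0.05, at most 6 in each direction. The most alike genes were the 2 with the highest r among named genes averaging 100 counts or more. Some genes that this rule names are not reported here.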

Additional observations from a re-analysis of the deposited data

Results flagged for a closer look

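One value of *Homer2* stood far from its group. Water mouse 43 of batch 1 had a batch-adjusted normalized count of 1089, and the next highest Water mouse had 909, a gap that is 0.575 of the range of the 10 Water mice on the log2 scale. In 27 groups of mice looked at in this way, chance flags about 1 in 20, and 1 was flagged. Without that mouse the log2 fold changes of *Homer2* were -0.03 in Acute mice and 0.08 in Chronic mice, and neither passed the adjusted threshold. The same mouse had the lowest *Grm4* count of all 28 mice, 397. Why it stands apart was not tested.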

How the results depend on the processing

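None of the 9 genes had an adjusted p under 0.05 under any of 15 alternatives or with any of the 28 mice left out; the lowest was 0.106 under the alternatives and 0.142 without 1 mouse, both against Water in Chronic mice. *Homer3* had no adjusted p in 3 of the DESeq2 comparisons. Counts over all genes moved more. For Acute and Chronic against Water, edgeR called 0 and 3 genes, DESeq2 9 and 38, DESeq2 after ComBat-seq 30 and 88, and limma-voom 2 and 2. The cause was not tested. The covariate fits and the mean transcript length were added after the data were seen.

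The numbers of the 9 genes at an unadjusted p under 0.05 were 2, 1 and 0 (Acute against Water, Chronic against Water, Chronic against Acute), beside 1549, 1702 and 723 of all 16266 genes. By limma-voom the Acute number was 3, with *Grm2*, beside 1661 of all genes. In batch 1 alone the Chronic number was 0, and the Acute 2 were *Grm8* and *Homer2*, not *Grm5*. In batch 2 alone the 3 numbers were 1, 2 and 1, where *Grm8* left the first and *Grm3* and *Homer3* entered the others. Over all genes the 3 numbers were 1172, 572 and 745 in batch 1 and 814, 2176 and 649 in batch 2. Over all genes they were 1207, 1024 and 621 with GC content and length offsets, and 1102, 990 and 660 with these and the replicate block. In both of these fits the Acute number of the 9 genes was 1, since *Grm5* left. With the central amygdala score as a covariate it was 0 and the number between the drinking groups 1 (*Homer3*). The latter was also 1 with RLE normalization and with only the 2 groups compared (*Homer3*), and with no filter (*Homer2*). Beside these stood 709 and 743 of all genes, and 1600 of 33467 with no filter. With the striatum score the Chronic number was 2, with *Grm4*. Over all genes the 3 numbers were 1731, 1681 and 571 with the striatum score and 792, 1686 and 532 with the central amygdala score. Without 1 mouse the numbers were 2 to 3, 1 to 2 and 0 to 2. *Grm2* entered the Acute number without Acute mouse 33 or 4 or Water mouse 42, and *Grm8* left it without Water mouse 40, when *Grm4* entered. *Grm3* entered the Chronic number without Water mouse 42, 43 or 5, and *Homer3* without Water mouse 2. Between the drinking groups, *Homer3* entered in 9 of 28 fits and *Homer2* in 7.

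Of the 66 pathway genes, 3, 7 and 7 had an unadjusted p under 0.05. Where no number over all genes is given here, it is the one given above for the same fit. In batch 1 alone the pathway numbers were 5, 2 and 3, and in batch 2 the Acute number was 1. With only the 2 groups compared the Acute number was 5, beside 1604 of all genes. With GC content and length offsets the last number was 2, and with the replicate block as well the last 2 numbers were 3 and 3. With the striatum score they were 8, 4 and 2, and with the central amygdala score the first and last were 1 and 1. Without 1 mouse the pathway numbers were 1 (without Water mouse 4) to 6 (Acute mouse 5), 3 (Water mouse 1) to 10 (Water mouse 5), and 2 (Chronic mouse 2) to 8 (Chronic mouse 3).

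Some signs turned. In Acute mice these were *Grm3* (0.032), *Grm7* (-0.0063) and *Homer3* (0.041) in batch 1 alone, and *Homer2* in batch 2 alone (0.0086) and with the central amygdala score (0.0019). In Chronic mice *Grm7* was 0.010 by limma-voom, 0.0073 in batch 2, 0.00018 with upper quartile normalization, 0.0043 with no filter, 0.033 with GC content and length offsets, 0.032 with these and the replicate block, and 0.00022 with only the 2 groups compared. Between the drinking groups *Grm2* was 0.057 in batch 2, *Grm5* 0.013 in batch 1 and 0.0064 with the striatum score, and *Grm3* and *Grm4* were 0.035 and 0.059 with that score. Without 1 mouse, *Grm7* ran from -0.014 to 0.013 in Chronic mice, and between the drinking groups *Grm2* ran from -0.074 to 0.0086, *Grm5* from -0.037 to 5.7e-05 and *Homer1* from -0.0070 to 0.088; *Grm3* reached -0.027 without Acute mouse 35, *Grm4* -0.033 without Chronic mouse 1 and *Grm7* -0.026 without Acute mouse 1. Of the 9 ranks of level in Water mice, 9 were the same over all mice of batch 1, 7 over those of batch 2 and 3 with the mean transcript length. With marker genes averaging 100 counts or more, 16 of 144 correlations passed by Pearson's r, as before, and 11 in place of 5 by Spearman's rho, 8 in place of 5 by both.

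The replicate numbers of batch 2 do not pair the mice. Of 16 same-numbered pairs, 4 correlated over 0.1 (from -0.35 to 0.34), and 1 of 17 mice correlated best with its own number. With the replicate block the 3 numbers of the 9 genes stayed at 2, 1 and 0, and those of the pathway genes were 2, 6 and 6. Over all genes they were 1390, 1675 and 780.

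Groups of 9 or 10 mice limit precision, and 42% of simulated 1.2-fold changes were recovered for Acute against Water. *Homer3* averaged only 127 counts, and counts summed over transcripts hide shifts between isoforms.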
